A study of Mus musculus with 24 samples.

Results

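RNA of pooled mouse 2-cell embryos labelled as overexpressing (OE) the histone demethylase KDM6B was compared with RNA of pools labelled as their control (CTR). Each group had n = 2 libraries, made from 17 and 18 embryos for CTR and from 17 embryos each for OE. The genes described are those with an FPKM (read fragments counted per gene length and per library size) of at least 1 in both libraries of either group. This rule took 10749 of the 46078 genes in the deposited table, of which 9538 met it in both groups, 607 only in OE and 604 only in CTR. Just inside the rule stood Sync, with 1.0003 FPKM in its lower OE library, and just outside it Cxadr, with 0.9996 FPKM. The cross was wild type throughout, with a B6/DBA mother and a PWK father. Neither the treatment of the CTR pools nor the independence of the 2 pools of a group is stated in the labels, so p-values cover the spread between libraries only, and that spread may be technical. The groups were taken from the sample titles. The manipulation field of both OE libraries names PR-DUB instead, and the title was followed.

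KDM6B is a demethylase of H3K27me3, a histone mark written by the PRC2 complex and found over the promoters of silent genes, above all CpG-rich ones. In mouse oocytes this mark covers broad domains, and the embryo inherits it, which gives a form of imprinting of a few genes that does not need DNA methylation. At the 2-cell stage the mouse embryo starts to transcribe most of its own genes while transcripts stored in the oocyte are degraded. A 2-cell transcriptome therefore holds maternal transcripts in decay and zygotic transcripts on the rise.

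The targeted transcript was not higher in the libraries labelled OE. Kdm6b (chromosome 11, 69398508 to 69413675, mm10) stood at 14588 and 14735 FPKM in the libraries labelled CTR and at 14237 and 9809 FPKM in those labelled OE, and was not called by limma (adjusted p = 0.481). It took 3.11% and 3.26% of all FPKM in CTR and 2.97% and 1.97% in OE, against 0.00374% to 0.00482% in the PR-DUB libraries of the same stage. Both OE values lay below both CTR values, so the label OE is used below for what the titles say and not for a measured excess of Kdm6b. Gene-level FPKM cannot show which form of an added transcript a library held.

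Between 10887 and 10975 genes reached 1 FPKM in each of the 4 libraries. OE replicate 2 stood apart in low values, with 18652 genes above 0 against 17481 to 17584 in the other libraries. The deposited values carry no counts. If the smallest step in FPKM is read as 1 fragment, a gene of 2 kb at 1 FPKM had 37.3 to 41.2 fragments in each library. Transcripts of the 2-cell stage such as Zfp352 and Usp17lc summed to 761 FPKM in OE replicate 2 and to 903 to 919 FPKM in the others, and oocyte transcripts such as Btg4 and Oosp1 to 1930 to 2039 FPKM. Of 20 markers of cumulus and granulosa cells none reached 1 FPKM, and Fshr, Foxl2 and Cyp11a1 were listed at 0 in all 4 libraries; blood markers summed to at most 0.435 FPKM, and markers of spermatozoa to 0.933 to 2.17 FPKM, all of it from the protamine gene Prm2, with the other 6 at 0. Across the expressed genes the CTR libraries correlated at r = 0.971 and the OE libraries at r = 0.967 on the log2(FPKM + 1) scale, and CTR with OE at r = 0.941 to 0.962, with genes not being independent replicates.

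Most of the called genes were higher in the libraries labelled OE. Of 15055 genes tested, 114 (0.757%) were called at an adjusted p under 0.05 by limma with Benjamini-Hochberg adjustment, 91 higher (0.604%) and 23 lower (0.153%), and all of them were among the 10749 expressed genes. The higher genes had a median FPKM of 9.85 in CTR and 22.7 in OE, and the lower genes 32.3 and 14.1. At an unadjusted p under 0.05 there were 2161 genes where chance gives 753. The median difference over all expressed genes was 0.003 on the log2(FPKM + 1) scale, with 5401 genes above 0 and 5348 below. Groups that did not overlap were frequent with 2 libraries against 2: this held for 44.0% of the genes tested, and an exact permutation test of one gene cannot go below p = 0.333.

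The count of calls rested on the spread shared with the 12 other KDM6B and PR-DUB libraries and on each single library. Fitted on the 4 libraries alone, limma called 0 genes, with 1995 at an unadjusted p under 0.05. Leaving out CTR replicate 1 gave 47 calls, CTR replicate 2 gave 11, OE replicate 1 gave 353 and OE replicate 2 gave 9. Bzw2, C130074G19Rik and Lsm14b kept a call whichever of the 4 libraries was left out. Rescaling the libraries by the median of their ratios gave 108 calls, 65 higher and 43 lower, so that 60.2% of the calls were higher instead of 79.8%.

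**Figure D1:**
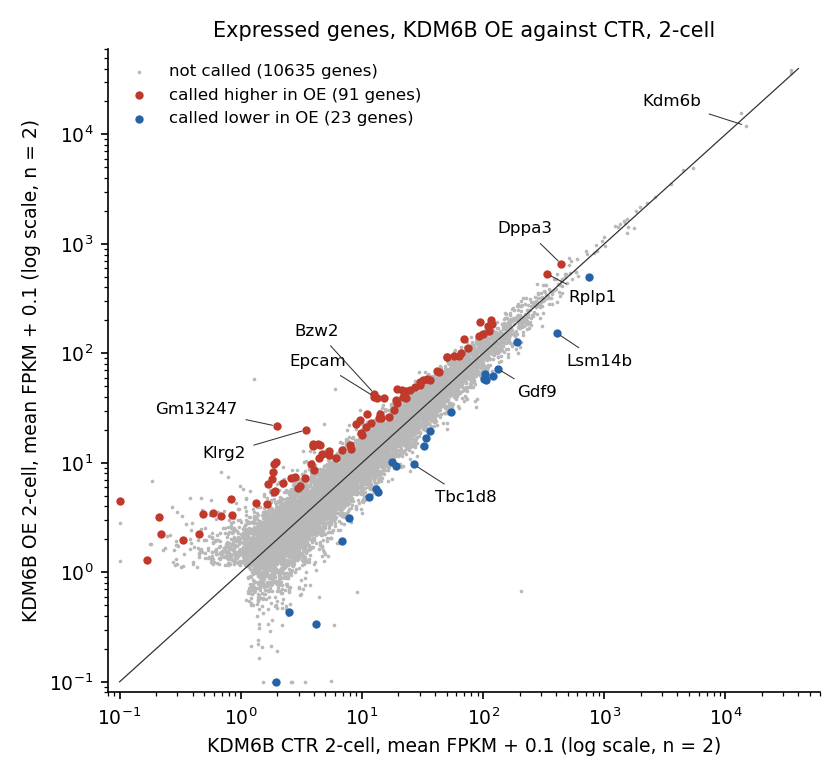
Mean FPKM + 0.1 of each expressed gene in the KDM6B 2-cell libraries labelled CTR (horizontal) and OE (vertical), both on log scales, n = 2 libraries per group; each point is a gene and the line marks equality. The 91 genes called higher (red) lie above the line over the whole range of CTR levels, from 0 to 441 FPKM, the 23 called lower (blue) below it, and Kdm6b lies close to the line at the top.

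The 15 largest rises included genes for proteins of the membrane and the cytoskeleton, described one by one. Klrg2, which encodes a C-type lectin-like membrane protein (chromosome 6, 38625693 to 38637242), stood at 3.91 and 2.75 FPKM in CTR and at 19.9 and 19.9 FPKM in OE, a difference of 2.28 log2 units (SE 0.29, adjusted p = 0.00717). Epcam, the epithelial cell adhesion molecule (chromosome 17, 87635979 to 87651129), stood at 13.1 and 12.1 FPKM in CTR and at 32.9 and 47.3 FPKM in OE (1.57, SE 0.18, adjusted p = 0.00646). Neither gene overlapped between the groups, which was so for all 91 genes called higher and for 5582 of the 10749 expressed genes. Smtn, which encodes the cytoskeletal protein smoothelin, rose from 0.576 and 0.878 FPKM to 4.46 and 4.78 FPKM (adjusted p = 0.0235).

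Bzw2 encodes a protein related to the initiation factor eIF5 that acts on the choice of start codon. It lies on chromosome 12 (36091835 to 36158080) and stood at 12.5 and 12.7 FPKM in CTR and at 34.9 and 50.5 FPKM in OE, a difference of 1.66 (SE 0.17, adjusted p = 0.00403). C130074G19Rik, a protein-coding gene on chromosome 1 (184871926 to 184883218), stood at 2.30 and 1.29 FPKM in CTR and at 8.35 and 10.98 FPKM in OE (1.94, SE 0.20, adjusted p = 0.00403). The OE means were 3.39 and 5.37 times the CTR means, and the CTR values lay close together in Bzw2 but not in C130074G19Rik.

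Genes of lipid metabolism were among the 15 largest rises. Scd1, the stearoyl-CoA desaturase that makes monounsaturated fatty acids, rose from 4.59 and 3.85 FPKM to 13.1 and 16.3 FPKM (1.59, SE 0.20, adjusted p = 0.00717). Mid1ip1, a regulator of fatty acid synthesis and the only called gene on the X chromosome, rose from 5.41 and 2.26 FPKM to 16.3 and 13.4 FPKM (adjusted p = 0.0408). Acot8, a peroxisomal acyl-CoA thioesterase, rose from 4.30 and 3.35 FPKM to 13.2 and 14.9 FPKM (adjusted p = 0.0319). No list of lipid genes was tested, so these are described one by one.

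The rest of the 15 largest rises were less well characterised or hard to count. Gm13247 stood at 3.28 and 0.480 FPKM in CTR and at 19.9 and 23.2 FPKM in OE (3.16, SE 0.47, adjusted p = 0.0181), and Gm13241, a processed pseudogene that lies close to it on chromosome 4, rose from 2.42 and 0.997 to 7.23 and 6.80 FPKM. Tbc1d9, of the TBC family of Rab GTPase-activating proteins, rose from 2.32 and 1.39 FPKM to 4.85 and 15.3 FPKM, with its OE libraries further apart than its CTR libraries. Snora36b, a small nucleolar RNA gene, was listed at 0 in both CTR libraries and at 5.85 and 2.97 FPKM in OE, and Rnu3b1, of the U3 family, was at 0 and 0.222 FPKM in CTR against 1.44 and 4.82 FPKM in OE. The lincRNA Gm26795 rose from 2.23 and 1.23 to 6.75 and 9.71 FPKM and the coding gene Gm29609 from 0.306 and 0.472 to 3.24 and 3.399 FPKM. Of the 91 higher genes 10 were processed pseudogenes (10.99%, against 4.65% of the expressed genes), which share reads with their parent genes, so their values are uncertain.

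Transcripts stored in the oocyte were among the largest falls. Lsm14b (chromosome 2, 180024987 to 180035465) encodes an RNA-binding protein of the particles that store oocyte mRNA. It stood at 413 and 402 FPKM in CTR and at 174 and 131 FPKM in OE, a difference of -1.42 (SE 0.16, adjusted p = 0.00488), so that the CTR mean was 2.67 times the OE mean. Tbc1d8, another Rab GTPase-activating protein gene, fell from 26.3 and 27.1 FPKM to 9.94 and 9.20 FPKM (-1.39, SE 0.20, adjusted p = 0.0172). Tbc1d14 of the same protein family fell from 126 and 115 FPKM to 69.0 and 55.2 FPKM (adjusted p = 0.0436). In these 3 genes, as in all 23 genes called lower and 5582 of the 10749 expressed genes, the groups did not overlap. Each of the 3 genes was classed as strongly maternal by the measure of stage described below.

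Other coding genes among the 15 largest falls had varied roles. Pdpn, which encodes the membrane glycoprotein podoplanin, fell from 13.1 and 13.6 FPKM to 5.93 and 4.67 FPKM (-1.20, SE 0.20, adjusted p = 0.0310). Lamp1, the lysosomal membrane protein, fell from 31.7 and 32.8 FPKM to 12.9 and 15.2 FPKM (adjusted p = 0.0391). Slc26a9, an anion transporter, fell from 11.6 and 11.2 FPKM to 5.47 and 4.05 FPKM, and Dcbld2, a transmembrane receptor-like protein, from 32.7 and 34.8 FPKM to 15.3 and 18.3 FPKM (adjusted p = 0.0413 and 0.0468). Cpxm2, of the carboxypeptidase family, fell from 6.58 and 6.98 FPKM to 2.05 and 1.66 FPKM, and Cds1, which makes CDP-diacylglycerol, from 18.4 and 19.8 FPKM to 9.28 and 9.34 FPKM. Olfr976, an olfactory receptor gene, fell from 7.80 and 7.67 FPKM to 3.41 and 2.73 FPKM, and Ndufb10, a subunit of respiratory complex I, from 13.6 and 12.3 FPKM to 6.44 and 4.82 FPKM.

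Of the non-coding genes among the falls, Ttc39aos1, an antisense transcript, stood at 3.61 and 4.47 FPKM in CTR and at 0 and 0.476 FPKM in OE (-2.05, SE 0.34, adjusted p = 0.0319). E230016K23Rik, annotated as a processed transcript, fell from 2.41 and 2.40 FPKM to 0.421 and 0.245 FPKM (adjusted p = 0.00717). The miRNA gene mmu-mir-1949 stood at 2.33 and 1.37 FPKM in CTR and near 0 in OE, but a fragment library of this kind measures the locus and not the mature miRNA. The largest difference of all expressed genes was not called: Mir8114 stood at 229 and 184 FPKM in CTR and at 0.868 and 0.275 FPKM in OE, with an SE of 2.76 from the spread within all groups and an adjusted p of 0.25. It is a miRNA gene of 111 bases and was named after its values were seen.

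**Figure D2:**
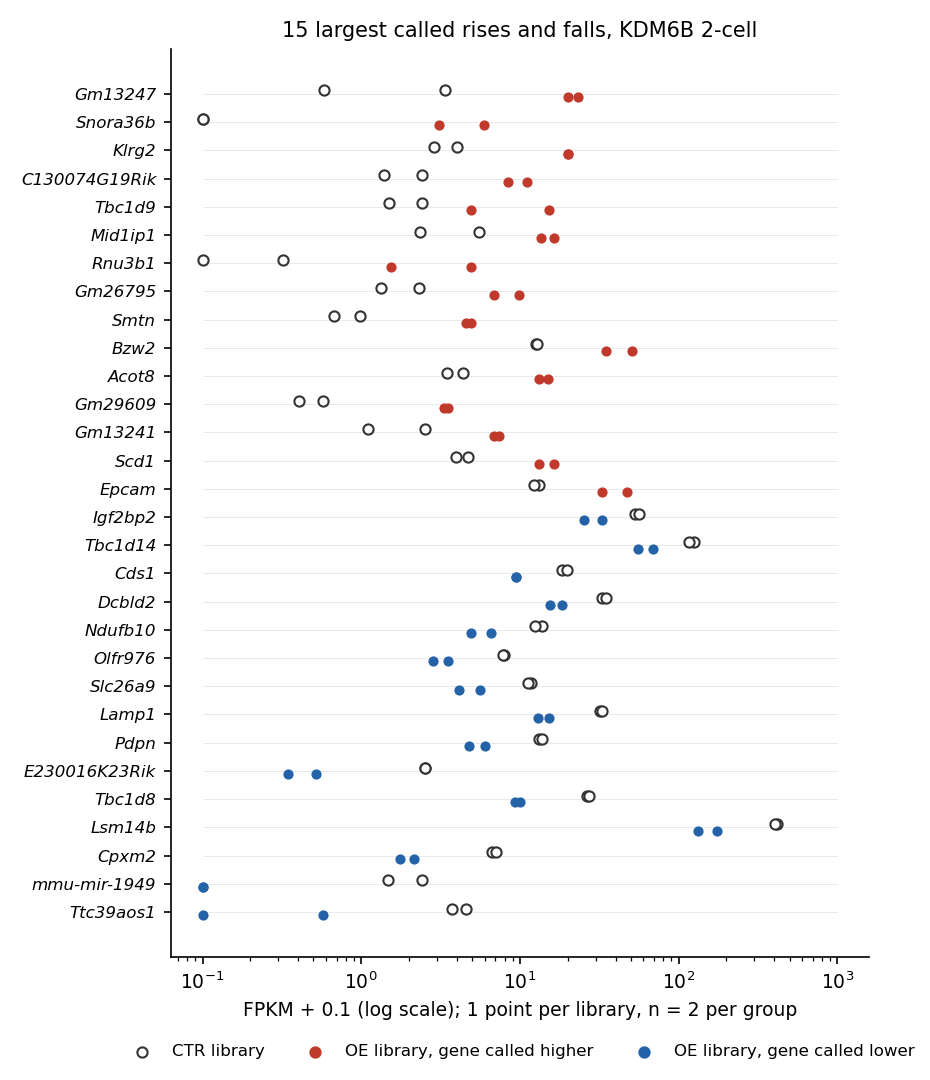
FPKM + 0.1 (log scale) in each KDM6B 2-cell library of the 15 genes with the largest called rises (red, OE) and the 15 with the largest called falls (blue, OE), with CTR libraries as open circles, n = 2 per group. In every gene shown, as in every called gene, both OE libraries lie on one side of both CTR libraries. This held for 5582 of the 10749 expressed genes. Ttc39aos1 (0 and 0.476 FPKM in OE), Rnu3b1 and Tbc1d9 have wide gaps between their OE libraries.

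CpG dinucleotides are the sequence feature that marks the promoters PRC2 acts on in mouse cells. Shown are the promoters of 3 genes that rose and 1 that fell, picked because they differ in CpG. Being so picked, these promoters say nothing about the called genes as sets. Each runs from 250 bases before to 50 bases after the gene start in RefSeq (GRCm38.p6), 5′ to 3′ on the gene's strand, with each CpG in capitals. By RefSeq the gene start of Bzw2 lies inside the longer gene given above. The Klrg2 sequence is chr6:38637190-38637489 on the minus strand and holds 12 CpG, the Epcam sequence is chr17:87635729-87636028 on the plus strand and holds 11, the Bzw2 sequence is chr12:36156776-36157075 on the minus strand and holds 12, and the Lsm14b sequence is chr2:180024737-180025036 on the plus strand and holds 40.
Klrg2: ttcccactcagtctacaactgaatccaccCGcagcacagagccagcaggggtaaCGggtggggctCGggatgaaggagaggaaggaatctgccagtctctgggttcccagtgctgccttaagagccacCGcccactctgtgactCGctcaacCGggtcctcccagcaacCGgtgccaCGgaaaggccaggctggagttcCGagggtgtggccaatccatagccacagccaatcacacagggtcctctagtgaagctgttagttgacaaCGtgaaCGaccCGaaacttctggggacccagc
Epcam: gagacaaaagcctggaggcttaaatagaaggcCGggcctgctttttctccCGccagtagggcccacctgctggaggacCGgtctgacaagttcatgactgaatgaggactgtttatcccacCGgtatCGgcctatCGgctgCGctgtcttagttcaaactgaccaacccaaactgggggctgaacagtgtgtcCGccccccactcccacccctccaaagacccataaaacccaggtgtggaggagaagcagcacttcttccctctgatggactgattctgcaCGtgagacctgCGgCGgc
Bzw2: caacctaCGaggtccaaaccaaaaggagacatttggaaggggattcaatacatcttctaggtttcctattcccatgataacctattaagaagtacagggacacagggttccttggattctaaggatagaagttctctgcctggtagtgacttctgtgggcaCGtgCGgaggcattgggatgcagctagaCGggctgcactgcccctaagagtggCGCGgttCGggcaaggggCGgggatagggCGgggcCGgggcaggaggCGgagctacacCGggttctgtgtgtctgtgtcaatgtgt
Lsm14b: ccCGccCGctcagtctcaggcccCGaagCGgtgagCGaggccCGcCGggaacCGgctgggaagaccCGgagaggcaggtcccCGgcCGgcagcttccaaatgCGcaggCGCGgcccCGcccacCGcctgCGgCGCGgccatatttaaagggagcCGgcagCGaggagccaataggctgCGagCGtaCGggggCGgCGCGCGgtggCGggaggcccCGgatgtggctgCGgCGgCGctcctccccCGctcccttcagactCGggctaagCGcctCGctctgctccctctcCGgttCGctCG
Over the 7309 expressed genes with such a sequence the median was 22 CpG, with quartiles of 14 and 30. As few CpG as in Klrg2 and Bzw2, or fewer, were found in 20.4% of them, and as many as in Lsm14b, or fewer, in 92.7%. A RefSeq promoter was at hand for 56 of the 91 higher genes (61.5%) and for 68.0% of all expressed genes, fewer than 80%, so a comparison of promoter CpG between the called genes and the rest would be void and was not made.

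The genes called higher were mostly genes of the zygotic genome, and those called lower mostly maternal transcripts. This was read from libraries outside the comparison, wild-type MII oocytes of B6/DBA females and late 2-cell embryos with a B6/DBA father (n = 2 each), so that the PWK copy is absent from them: a gene was classed as strongly activated where late 2-cell exceeded MII by at least 2 on the log2(FPKM + 1) scale, as activated from 1 to 2, as maternal and strongly maternal by the same bounds in the other direction, and as stable in between. Of the 91 higher genes 58 (63.7%) were strongly activated, against 15.4% of the expressed genes, and 0 were strongly maternal. Of the 23 lower genes 12 (52.2%) were strongly maternal, against 12.9% of the expressed genes, and 0 were strongly activated. Klrg2 stood at 0.00795 ± 0.0112 FPKM (SD, n = 2) in MII oocytes and 21.1 ± 2.29 FPKM in late 2-cell embryos, and Lsm14b at 1186 ± 9.80 and 162 ± 38.3 FPKM.

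The same grading held over all expressed genes, called or not. The median difference between OE and CTR was -0.23 for the 1385 strongly maternal genes, -0.15 for the 1673 maternal genes, -0.01 for the 4471 stable genes, 0.19 for the 1499 activated genes and 0.34 for the 1656 strongly activated genes, all on the log2(FPKM + 1) scale. Both OE libraries exceeded both CTR libraries in 858 strongly activated genes (51.8%) and lay below both in 113 (6.82%). In strongly maternal genes the shares were 7.22% and 44.8%. Without OE replicate 2 the medians of the 5 classes, in the same order, were -0.165, -0.124, -0.0281, 0.109 and 0.226, and without OE replicate 1 they were -0.313, -0.177, 0.00211, 0.252 and 0.481. After rescaling by the median of ratios the medians shifted down by about the same amount in each class, to -0.33, -0.24, -0.11, 0.10 and 0.25, and their order stayed.

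The order of the classes was present in each pair of single libraries, and it was steeper in OE replicate 2. In strongly activated genes OE replicate 1 differed from the CTR libraries by medians of 0.15 and 0.27, and OE replicate 2 by 0.40 and 0.53. In strongly maternal genes the medians were -0.14 and -0.21 for OE replicate 1 and -0.27 and -0.35 for OE replicate 2. Of the 91 genes called higher, 78 (85.7%) had their higher OE value in replicate 2, against 54.6% of all expressed genes; replicate 2 was also the library with the lower Kdm6b. Across 10684 genes the OE difference correlated with the difference between late 2-cell embryos and MII oocytes at r = 0.40, given as a description, since the genes share the same libraries. Times of collection were not used here, and a difference in developmental time between the pools cannot be told apart from the manipulation.

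A second measure of stage, the change from 2-cell to 4-cell embryos in the PR-DUB controls, gave a weaker grading and was chosen after seeing the data. The correlation with the OE difference was r = 0.16 over 10749 genes, and the class medians ran from -0.11 for genes that fell by at least 2 to 0.13 for those that rose by at least 2, with 0.15 in the class below. Of the 91 higher genes 63 were higher at the 4-cell stage by this measure, against 4231 of the 10749 expressed genes.

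**Figure D3:**
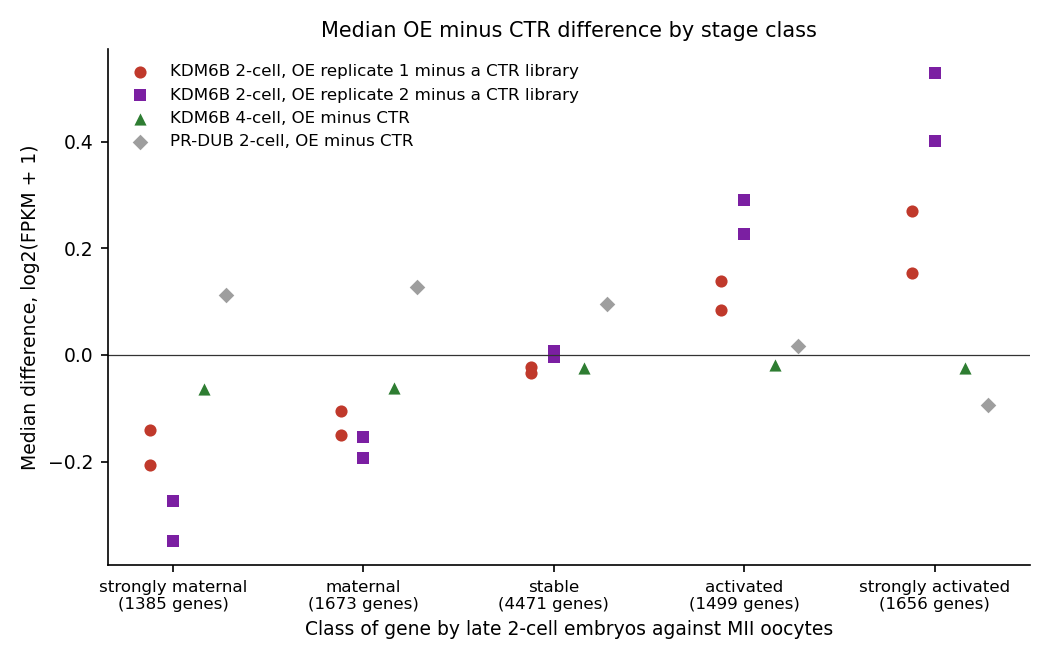
Median OE minus CTR difference, in log2(FPKM + 1), of expressed genes in 5 classes by their change from MII oocytes to late 2-cell embryos; circles and squares are single OE libraries minus single CTR libraries of the KDM6B 2-cell groups, triangles the KDM6B 4-cell groups and diamonds the PR-DUB 2-cell groups. The circles and squares climb from left to right, the squares of OE replicate 2 the more steeply, while the 4-cell triangles stay between -0.06 and -0.02.

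Levels in the other control groups put the called genes in context. In the PR-DUB CTR 2-cell libraries Klrg2 stood at 24.9 and 25.4 FPKM, Bzw2 at 45.1 and 53.7, Epcam at 40.1 and 38.7, and Lsm14b at 156 and 163 FPKM, in each case nearer to the KDM6B OE than to the KDM6B CTR libraries. By means on the log2(FPKM + 1) scale this held for 84 of the 91 higher and 22 of the 23 lower genes, and for 71.8% of all expressed genes; the KDM6B values also chose the called genes, so these counts are a description. The exceptions include the 2 largest rises, Gm13247 with 0.625 and 0.828 FPKM in PR-DUB CTR and Snora36b, listed at 0 in both, as well as Mid1ip1 with 2.09 and 3.13 FPKM. In the KDM6B CTR 4-cell libraries Bzw2 stood at 103 and 86.4 FPKM and Lsm14b at 55.9 and 45.6 FPKM. PR-DUB and KDM6B libraries are separate experiments, so these levels are set side by side and were not tested against each other.

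**Figure D4:**
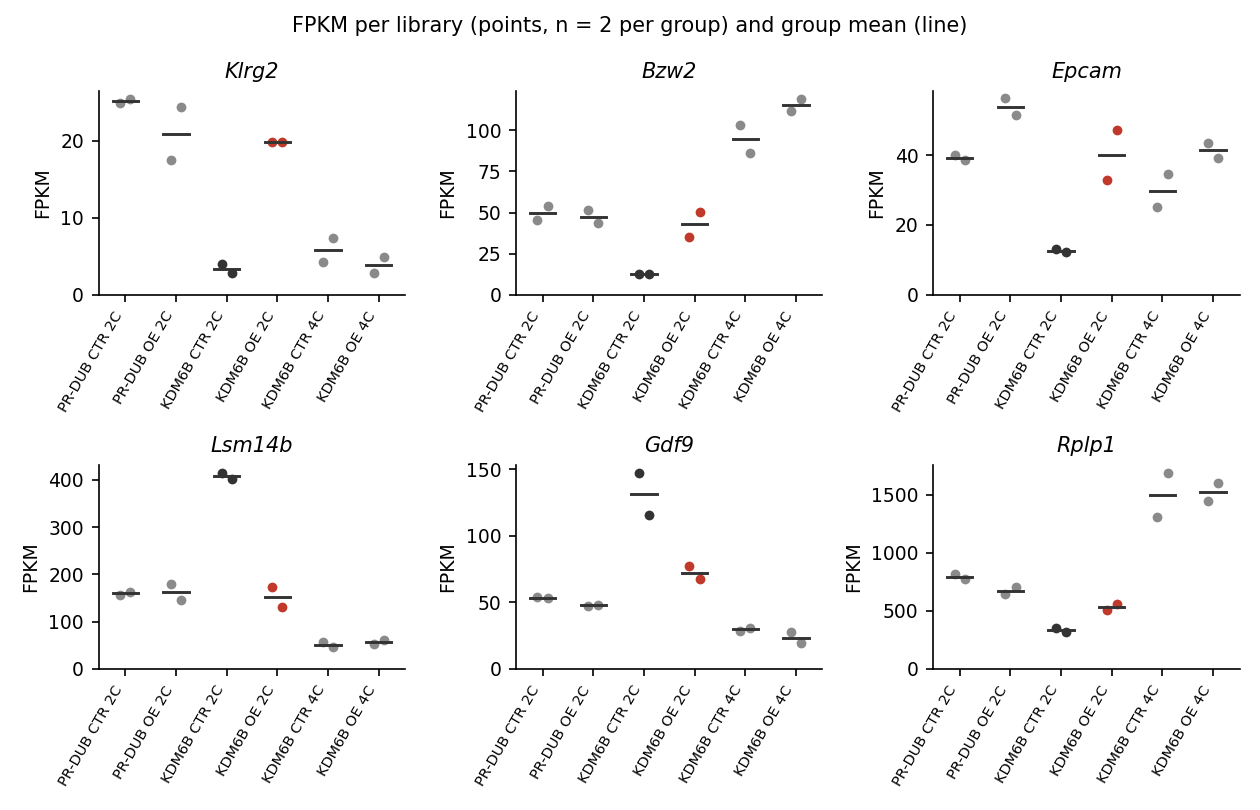
FPKM of 6 called genes in the 2 libraries (points) and the mean (line) of the PR-DUB 2-cell, KDM6B 2-cell and KDM6B 4-cell groups, each panel starting at 0. The KDM6B CTR 2-cell libraries (dark) are the lowest of the 2-cell libraries for Klrg2, Bzw2, Epcam and Rplp1 and the highest for Lsm14b and Gdf9, and the KDM6B OE 2-cell libraries (red) lie nearer to the PR-DUB libraries.

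Genes of the protein synthesis machinery had more differences above 0 than below. Of 88 expressed genes for cytosolic ribosomal proteins 10 were called higher and 0 lower, where 0.604% and 0.153% of the genes tested were. Above 0 were 83 differences, against 5401 of the 10749 expressed genes. The median was 0.40, against 0.003 over all expressed genes. Rplp1, a protein of the ribosomal stalk, rose from 350 and 321 FPKM to 511 and 555 FPKM (0.67, SE 0.12, adjusted p = 0.0344). Rpl13 rose from 24.8 and 18.1 FPKM to 39.5 and 52.2 FPKM (1.07, SE 0.20, adjusted p = 0.0391). Called members also included Rpl9, Rpl12, Rpl35, Rps6, Rps14 and Rps21, among them Rps6 with a difference of 0.51 and Rpl12 with one of 0.84. Ribosomal protein genes have many processed pseudogenes, so part of their reads may be counted elsewhere. Their median difference between late 2-cell embryos and MII oocytes was 1.79. This list was taken by gene symbol after values were seen.

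Factors that build ribosomes differed in the same direction without a call. Of 67 expressed genes 63 had differences above 0, against 5401 of the 10749 expressed genes, with a median of 0.41. Of the 67, 0 were called by limma, where 0.757% of all genes tested were, so 0 calls say little. Heatr1, a factor of the small subunit processome, stood at 10.98 and 8.69 FPKM in CTR and at 14.9 and 26.0 FPKM in OE (adjusted p = 0.0662), and Nifk, a nucleolar protein that binds Ki-67, at 33.6 and 24.6 FPKM and 44.0 and 52.5 FPKM (adjusted p = 0.0585). Ddx10 and Nop9, nucleolar proteins of ribosome maturation, stood at adjusted p = 0.0583 and 0.0611. After rescaling 58 of the 67 and 78 of the 88 ribosomal protein genes were above 0.

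Of the spliceosome list, 1 of 51 expressed genes was called higher and 0 lower, where 0.604% and 0.153% of the genes tested were. Differences were above 0 in 44, and the median was 0.32. The called gene was Snrpb, which encodes the core proteins SmB and SmB′ of the spliceosomal particles: it stood at 3.98 and 5.19 FPKM in CTR and at 10.6 and 13.3 FPKM in OE (1.21, SE 0.17, adjusted p = 0.0172). Proteasome genes had a median of 0.09 with 21 of 31 above 0 and 0 called by limma; after rescaling 16 were above 0 and 15 below.

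Maternal transcripts had more differences below 0 than above, with called genes in both directions. Of 86 expressed members 3 were called lower and 2 higher, where 0.153% and 0.604% of the genes tested were. Differences were below 0 in 62, and the median was -0.18. Besides Lsm14b, Gdf9 and Igf2bp2 fell. Gdf9, a growth factor that the oocyte secretes, stood at 147 and 116 FPKM in CTR and at 77.3 and 67.4 FPKM in OE (-0.85, SE 0.17, adjusted p = 0.0474), and Igf2bp2, an RNA-binding protein of maternal origin that mouse 2-cell embryos need, at 52.6 and 55.8 FPKM in CTR and 33.0 and 25.3 FPKM in OE (-0.88, SE 0.17, adjusted p = 0.0420). Dppa3, the maternal factor that protects DNA methylation of the maternal genome in mice, rose from 477 and 406 FPKM to 584 and 728 FPKM (0.57, SE 0.12, adjusted p = 0.0474), and Ccnb1, cyclin B1, from 67.5 and 58.0 FPKM to 93.9 and 95.8 FPKM (adjusted p = 0.0344). Both were classed as stable between MII oocytes and late 2-cell embryos.

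Genes expressed in a burst at the 2-cell stage had more differences below 0 than above, unlike the strongly activated genes as a whole. Of 44 expressed members 1 was called higher and 0 lower, where 0.604% and 0.153% of the genes tested were. Differences were below 0 in 28. The median was -0.18, although the members' median difference between late 2-cell embryos and MII oocytes was 2.69. Trim43a, of a Trim43 family active at this stage, rose from 40.4 and 42.9 FPKM to 57.8 and 79.5 FPKM (0.69, SE 0.14, adjusted p = 0.0453). Its relatives stood at 98.1 and 92.5 FPKM in CTR and 120 and 141 FPKM in OE for Trim43b (adjusted p = 0.0601) and at 23.2 and 18.8 FPKM and 30.1 and 34.6 FPKM for Trim43c (adjusted p = 0.0873). These genes have near-identical copies, so the split of reads among them is uncertain. The median was near 0 for OE replicate 1 (0.002 and -0.02) and lower for OE replicate 2 (-0.35 and -0.27).

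Pluripotency genes had 2 of 20 expressed members called higher, where 0.604% of the genes tested were, and 0 called lower. Of the 20, 14 were above and 6 below 0, with a median of 0.37, and the groups did not overlap in 10 higher and 5 lower. Of the 10749 expressed genes, 5582 did not overlap. The members named here are all above 0. Fgf4, the ligand that later directs the primitive endoderm, rose from 1.71 and 1.46 FPKM to 4.77 and 7.96 FPKM (1.48, SE 0.27, adjusted p = 0.0365), and Dppa5a, an RNA-binding protein of pluripotent cells, from 9.78 and 9.44 FPKM to 22.2 and 27.03 FPKM (1.27, SE 0.25, adjusted p = 0.0447). Klf4, a pluripotency factor, stood at 26.5 and 23.0 FPKM in CTR and at 36.1 and 34.9 FPKM in OE (adjusted p = 0.0998), and the nuclear receptor gene Nr5a2 at 30.6 and 31.4 FPKM and 44.7 and 51.0 FPKM (adjusted p = 0.194).

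Genes imprinted by the mark that KDM6B removes were seldom expressed, and none was called. With 0.757% of all genes tested called, 0 calls in this or another short list say little. Of 16 genes listed as imprinted by H3K27me3 in the mouse embryo, 4 met the expression rule, 9 were tested below it, and Smoc1, Runx1 and Otx2 did not pass the filter of the test. The 4 expressed genes were all above 0, with a median of 0.57, and 3 of them were above 0 after rescaling. Tle3 and Gab1 met the rule only through OE, so the rule itself favoured this sign. Over the 13 listed genes that were tested the median was 0.05. Jade1 stood at 7.04 and 9.57 FPKM in CTR and at 15.9 and 18.5 FPKM in OE (0.98, SE 0.37, adjusted p = 0.231). Tle3 stood at 0.955 and 1.73 FPKM and 2.59 and 3.08 FPKM (adjusted p = 0.548), Gab1 at 0.620 and 0.838 FPKM and 1.198 and 1.37 FPKM (adjusted p = 0.681), and Bbx at 1.57 and 2.82 FPKM and 1.93 and 2.55 FPKM. In Jade1, Tle3 and Gab1 the groups did not overlap, which held for 5582 of the 10749 expressed genes, and in Bbx they did.

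The other listed genes were below the expression rule. Sfmbt2 stood at 1.41 and 0.492 FPKM in CTR and at 0.385 and 0.442 FPKM in OE, Enc1 at 0.722 and 0.622 FPKM and 1.93 and 0.834 FPKM, and Epas1 at 0.101 and 0.308 FPKM and 0.130 and 0.556 FPKM. Slc38a4, Rbms1, Inhbb, Sox21 and Mbnl2 stayed under 0.3 FPKM in all 4 libraries, and Xist stood at 0.554 and 0.0704 FPKM in CTR and 0.0720 and 0.0139 FPKM in OE, with adjusted p-values of limma from 0.55 for Enc1 upward. Whether an allele was released cannot be read from these gene-level values, which do not separate the B6/DBA from the PWK copy.

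Developmental regulators are the transcription factor genes that PRC2 holds silent in many mouse cells. Of 161 listed genes 25 were expressed, of which 17 were below 0 and 0 were called by limma. The median was -0.23 over these 25 and -0.04 over the 61 listed genes that were tested. Tfap2b stood at 1.41 and 1.92 FPKM in CTR and at 0.0536 and 0.793 FPKM in OE (adjusted p = 0.116), Tbx1 at 1.33 and 1.29 FPKM and 0.258 and 0.159 FPKM (adjusted p = 0.139), and Emx2 at 2.91 and 3.34 FPKM and 1.10 and 1.27 FPKM (adjusted p = 0.180). Gbx2, the most abundant of these 4, stood at 23.9 and 27.8 FPKM and 20.7 and 14.4 FPKM. Tfap2b and Tbx1 met the expression rule only through CTR, so the rule itself favoured a fall in them. Of 26 expressed genes with canonical imprinting, which rests on DNA methylation, 13 were above and 13 below 0, and 0 were called.

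The enzymes of the mark differed little. Of 15 expressed PRC2 subunits and H3K27 demethylases 0 were called by limma. Ezh2, the methyltransferase, stood at 113 and 116 FPKM in CTR and at 111 and 106 FPKM in OE, Eed, which binds the mark, at 36.3 and 40.8 FPKM and 45.7 and 42.02 FPKM, and Suz12, their core partner, at 274 and 266 FPKM and 371 and 279 FPKM. Kdm6a, the X-linked relative of Kdm6b, stood at 24.8 and 23.9 FPKM and 22.1 and 21.6 FPKM (adjusted p = 0.763). The differences were -0.08 for Ezh2, 0.18 for Eed, 0.25 for Suz12 and -0.15 for Kdm6a, with SE from 0.14 to 0.16. Among 31 expressed PRC1 and PR-DUB subunits 18 were above and 13 below 0, against 14 and 17 after rescaling, and 0 were called; Pcgf6, of a germline-silencing PRC1, came nearest at 33.3 and 24.8 FPKM and 46.7 and 40.8 FPKM (adjusted p = 0.106).

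Lists of other processes held no called gene, where 0.757% of all genes tested were called. Trophectoderm genes had 3 of 11 expressed members above 0 and 8 below, with a median of -0.40. Over the 15 that were tested the median was -0.17. Tead4, a trophectoderm transcription factor, was among the 3 above 0 and so went against most of its list. It stood at 1.56 and 1.99 FPKM in CTR and 3.02 and 6.11 FPKM in OE (limma, adjusted p = 0.104). Primitive endoderm genes had a median of -0.36 over 6 expressed members and of -0.24 over the 8 that were tested. Among 47 other chromatin modifiers the median was 0.11, and the members of lowest p were Kdm5a, an H3K4 demethylase gene, at 9.60 and 13.5 FPKM and 17.8 and 22.3 FPKM (adjusted p = 0.0601), and Tet3, the maternal 5-methylcytosine oxidase, at 161 and 162 FPKM and 94.6 and 90.1 FPKM (adjusted p = 0.0750). The medians were 0.19 for 18 heat shock genes, 0.13 for 20 p53 targets, 0.004 for 22 genes of the integrated stress response, -0.05 for 17 glycolysis genes and -0.03 for 26 histone genes, and after rescaling those of p53 targets and the stress response had 9 and 12 members below 0.

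**Figure D5:**
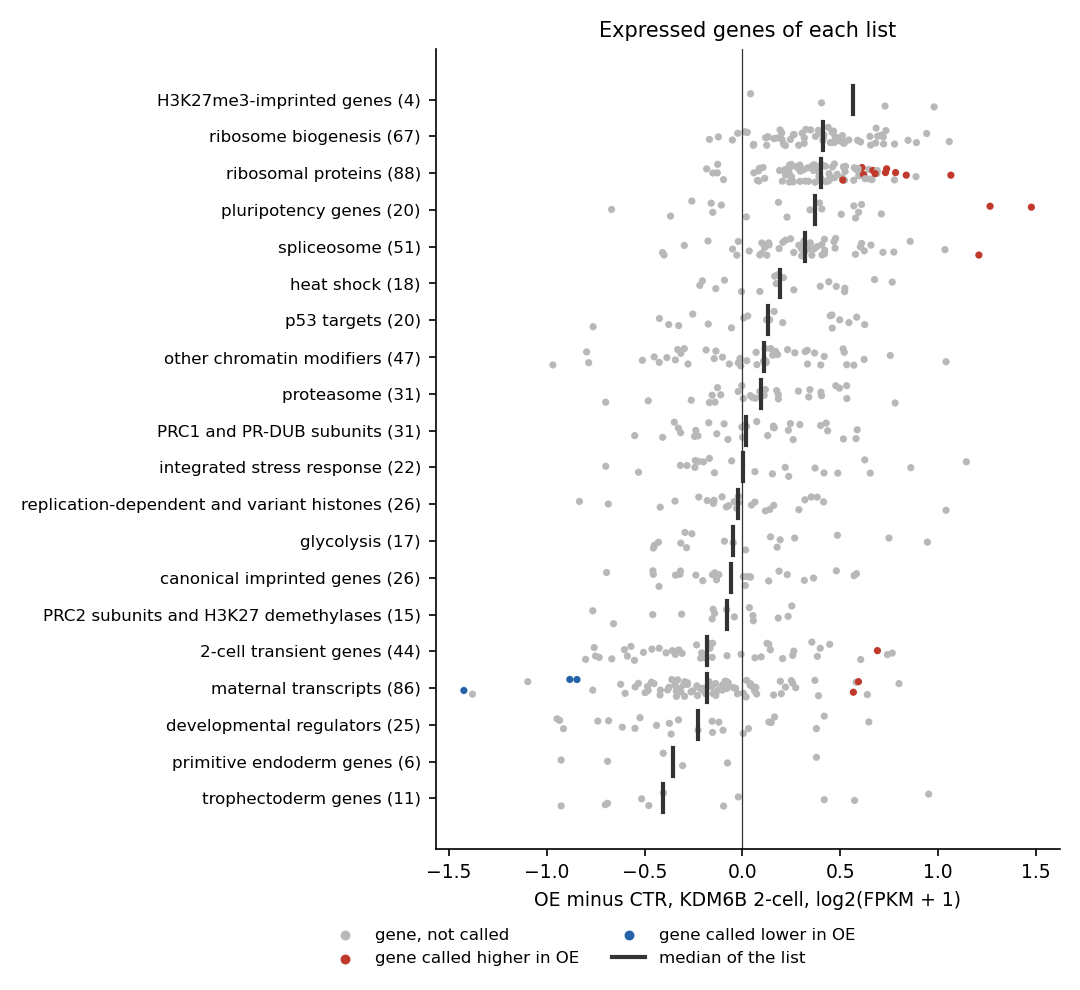
OE minus CTR difference in log2(FPKM + 1) of the expressed members of each gene list (number in brackets), with called genes in colour and the median of each list as a bar. The bars of ribosome biogenesis (0.41) and ribosomal proteins (0.40) lie to the right with nearly all their points. Further right is H3K27me3-imprinted genes (0.57, 4 genes). The bars of maternal transcripts and 2-cell transient genes (both -0.18) lie to the left. Further left are trophectoderm (-0.40), primitive endoderm (-0.36) and developmental regulators (-0.23). The expression rule can be met through either group alone, which can widen such medians. Over all tested members they were -0.17, -0.24 and -0.04 in that order, and 0.05 for H3K27me3-imprinted genes. Called maternal transcripts lie on both sides, and the 1 called 2-cell transient gene lies on the right.

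Further called genes, named here after their values were seen, came from several processes. In nuclear and RNA functions, Parp1, which marks DNA breaks with poly(ADP-ribose), rose from 9.51 and 8.09 FPKM to 19.9 and 25.4 FPKM (1.27, SE 0.16, adjusted p = 0.00717), and Pabpc1, the cytoplasmic poly(A)-binding protein, from 125 and 113 FPKM to 162 and 207 FPKM. Tfrc, the transferrin receptor that imports iron, rose from 68.0 and 72.0 FPKM to 141 and 127 FPKM (0.92, SE 0.14, adjusted p = 0.0181). Sp6, a transcription factor of the Sp and Klf family, rose from 14.5 and 11.95 FPKM to 33.5 and 44.0 FPKM (1.47, SE 0.23, adjusted p = 0.0237). Among the falls, Trip12, a ubiquitin ligase, went from 714 and 786 FPKM to 476 and 520 FPKM, and Furin, a proprotein convertase, from 17.3 and 17.6 FPKM to 10.8 and 9.18 FPKM (adjusted p = 0.0436 and 0.0474).

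At the 4-cell stage of the same experiment none of the 114 genes was called, where 54 of the 15055 genes were (0.359%). The 91 genes called higher at the 2-cell stage had a median difference of 0.03 there, with 53 above and 37 below 0, against 4870 and 5811 of all expressed genes, and the 23 called lower a median of -0.11. Medians of the stage classes lay between -0.06 and -0.02, and the correlation with the late 2-cell against MII difference was r = 0.047. The difference between the effects at the 2 stages was called for 21 genes (0.139%), 6 with a higher effect at the 4-cell stage and 15 with a lower one. The labels give a NextSeq550 for the 2-cell libraries and leave a NextSeq550 or a HiSeq2000 for the 4-cell ones, so stage and instrument cannot be told apart.

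Of the 114 genes called at the 2-cell stage, 9 were among those 21, Lsm14b with a fall at the 2-cell stage and Klrg2, C130074G19Rik, Scd1, Snrpb, Tfrc, Abhd6, Pdxk and Mpc1-ps with a rise. The contrast holds the 2-cell difference itself, so it is not independent of those calls. For Klrg2 the KDM6B 4-cell libraries stood at 4.21 and 7.36 FPKM in CTR and at 2.77 and 4.91 FPKM in OE, and the effect differed from that at the 2-cell stage by -2.76 (SE 0.41, adjusted p = 0.0356). For Lsm14b they stood at 55.9 and 45.6 FPKM and 51.5 and 60.6 FPKM, and the effect was higher by 1.57 (SE 0.22, adjusted p = 0.0343). In both genes the groups overlapped at the 4-cell stage and not at the 2-cell stage.

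The PR-DUB experiment at the 2-cell stage, in which a complex that removes ubiquitin from histone H2A was overexpressed, called 177 genes (1.18%). It shared 5 called genes with the KDM6B comparison, Bcl2l14, Gm13241, Gm29609, Rpl35 and Smtn, that is, 4.39% of the KDM6B and 2.82% of the PR-DUB calls. Bcl2l14, Gm13241 and Smtn were higher in both, while Gm29609 and Rpl35 were higher with KDM6B and lower with PR-DUB. Both experiments had their own controls. The difference between the effects was called for 259 genes (1.72%), 87 higher with PR-DUB and 172 lower. This contrast holds the KDM6B difference itself, so it is not independent of the KDM6B calls. It was called for 51 of the 91 genes called higher with KDM6B and for 9 of the 23 called lower.

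The strongly activated genes and the ribosomal proteins differed in direction between these experiments. With PR-DUB the class medians, from strongly maternal to strongly activated, were 0.11, 0.13, 0.10, 0.02 and -0.09. The PR-DUB median over all expressed genes was 0.07, so the value of the strongly maternal genes lay close to the general one. The median of the ribosomal proteins was -0.30 and that of ribosome biogenesis -0.24. For Rpl35 the PR-DUB libraries stood at 173 and 152 FPKM in CTR and 88.9 and 111 FPKM in OE, where the KDM6B libraries stood at 62.7 and 68.4 FPKM and 94.3 and 107 FPKM, and the effects differed by -1.31 (SE 0.17, adjusted p = 0.0192). The PR-DUB CTR libraries were thus the higher controls and the KDM6B CTR libraries the lower ones for this gene, while both OE groups lay between 88.9 and 111 FPKM. For Bzw2 the effects differed by -1.72 (SE 0.25, limma, adjusted p = 0.0192), with 51.3 and 43.5 FPKM in PR-DUB OE. Its PR-DUB effect was -0.06, so most of this value is the KDM6B difference by which Bzw2 was called.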

How the data were processed

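Deposited FPKM of 24 libraries were used. Per the submitters' processing notes the authors trimmed with Trim Galore (0.6.5), aligned to mm10 using HISAT2 (2.1.0) and ran StringTie (1.3.3b), and per the labels' protocols a low-input stranded SMART-Seq kit. The 16 PR-DUB and KDM6B libraries come as one table with 46078 genes and MII oocytes and late 2-cell embryos as another with 55573, which was normalized separately and used only to class genes. In the former, 45229 identifiers were found in GENCODE vM21, which gave symbols and positions, and 27 gene names turned into dates were restored.

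Values were taken as log2(FPKM + 1), which understates changes of low genes. Genes with FPKM of at least 1 in at least 2 of 16 libraries (15055) were fitted with limma 3.58.1 in R 4.3.3 (eBayes with trend) as 8 group means with 8 residual degrees of freedom, two-sided, with Benjamini-Hochberg adjustment over all genes tested and a threshold of 0.05. The script was tested on simulated data. Genes named are the 15 largest called rises and falls, the genes of the mark and its imprinted genes, and in each list the called genes or some of lowest p. Members and lists were chosen with earlier results of these data known, and the ribosomal protein list was taken by symbol after values were seen. Alternatives changed the pseudocount, the filter, the scaling, the genes or libraries fitted, the replicate block and the libraries left out. Some called genes are not reported here by name.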

Additional observations from a re-analysis of the deposited data

Results flagged for a closer look

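The effect labelled KDM6B differed between the 4-cell and the 2-cell stage, by a test of the difference itself, in 19 expressed genes, of which these had the lowest p in each direction (4-cell minus 2-cell, log2 units, limma, adjusted p from 0.00276 to 0.0493): Lsm14b by 1.57, Zranb2 by 1.73, RP23-214I6.5 by 2.89 and Calm2 by 1.13 in the positive direction, and Gm26079 by -3.41, Angel1 by -2.18, Uba1 by -1.42, Mt1 by -1.44 and Klrg2 by -2.76. Of the genes given here Lsm14b and Klrg2 were called at the 2-cell stage itself, as were 7 of the others among the 19. Gm26079, a snoRNA gene, was at 81.7 and 70.7 FPKM in CTR and 98.7 and 99.8 FPKM in OE at the 2-cell stage. At the 4-cell stage it was at 51.0 and 53.9 FPKM in CTR and 4.46 and 6.88 FPKM in OE. The PR-DUB CTR 4-cell mean was 11.6 FPKM, nearer to the KDM6B OE than to the KDM6B CTR 4-cell libraries. Calm2, calmodulin 2, stood at 160 and 160 FPKM in CTR and 183 and 171 FPKM in OE at the 2-cell stage, and at 56.2 and 64.2 FPKM and 142 and 149 FPKM at the 4-cell stage.

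Between the PR-DUB and the KDM6B experiment at the 2-cell stage the effect differed, by the same kind of test (PR-DUB minus KDM6B, log2 units, adjusted p of at most 0.0192), by 5.18 in Gm25951, 2.95 in Socs2, 1.83 in Actn1, 1.85 in Gm26787 and 2.96 in Cyb5a, and by -1.31 in Rpl35, -1.60 in Rpl27-ps3, -1.07 in Ccnb1, -3.21 in Gm29609 and -1.72 in Bzw2. Socs2, a feedback inhibitor of cytokine signalling, was at 8.72 and 10.7 FPKM in PR-DUB OE, at 0.712 and 0.889 FPKM in its CTR, and in the KDM6B experiment at 1.67 and 1.42 FPKM (CTR) and 0.839 and 1.09 FPKM (OE). Gm25951, a miRNA gene of 64 bases, stood at 0.744 and 0.848 FPKM in PR-DUB CTR and at 39.2 to 63.3 FPKM in the 4 KDM6B libraries of that stage, and at 44.6 and 59.1 FPKM in PR-DUB OE. Both kinds of contrast hold the KDM6B 2-cell difference, so they are not independent of the calls at that stage. Groups of 2 libraries are too small for a test of single outlying libraries.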

How the results depend on the processing

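KDM6B 2-cell calls (114) were 195 with a pseudocount of 0.1, 217 with the stricter filter, 241 when only expressed genes entered the fit, 0 with the 4 libraries alone (2 residual degrees of freedom), and 9 to 353 when one library was left out. The 4-cell minus 2-cell effect (21 calls) gave 50 with no filter, 46 with the stricter one and 1 to 62 with a library left out, and the PR-DUB minus KDM6B effect (259) gave 2 to 515. With the replicate number as a block the calls were 0, 0 and 1, with 1910, 1704 and 2340 genes at an unadjusted p under 0.05 by limma; same-numbered KDM6B 2-cell libraries share only a number (correlation of their deviations -0.062). The cause of these shifts was not tested. Of the 114 calls 87 remained after rescaling, 108 with a pseudocount of 0.1 and 62 with no filter. Rescaling moved the median of expressed genes from 0.003 to -0.0906, and those of strongly maternal, maternal, stable and activated genes to -0.333, -0.241, -0.106 and 0.101. The class medians under alternatives were added after seeing the data. Bbx, not called, reversed after rescaling (-0.0333) and ranged from -0.244 to 0.326 with a library left out, with -0.0976 without OE replicate 2, and Epas1, not called, ranged from -0.0873 to 0.375. None of the 47 named called genes kept its call under every alternative, since 2 alternatives made no call. The FPKM come without counts, so how far depth limits low genes is not known exactly.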
